A study of Mus musculus with 36 samples.

Results

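The genes of fatty acid oxidation were followed through primary mouse adipocytes, macrophages, myotubes and hepatocytes given butyrate or β-hydroxybutyrate (βOHB). They are 32 genes picked by symbol for their place in the pathway and matched by Ensembl identifier to the 54347 rows of the gene-level count table. All 32 were found, and all 32 passed the filter on low counts that left 15340 genes for testing. Of the 32, 19 code for enzymes and carriers of mitochondrial oxidation, 3 (Acaa1a, Ehhadh and Hsd17b4) for peroxisomal enzymes, and Eci2, which is found in both organelles, was placed in neither set. Ech1, which is also found in peroxisomes, was kept among the 19. The other members are 4 acyl-CoA synthetases, 2 thioesterases, and Pdk4, Ucp2 and Ucp3, which bear on fuel choice and uncoupling.

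Fatty acids are activated to acyl-CoA esters by synthetases, and long chains enter mitochondria as carnitine esters that Cpt1 makes at the outer membrane and Cpt2 turns back inside. There each round of β-oxidation takes a dehydrogenation, a hydration, a further dehydrogenation and a thiolytic cleavage, and shortens the chain by an acetyl-CoA unit. Peroxisomes run a like sequence on very long and branched chains with enzymes of their own. The pathway runs high in liver and muscle during fasting, when the liver turns its acetyl-CoA into ketone bodies, and many of its genes are classic targets of the PPAR nuclear receptors.

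Each cell type had 3 libraries of cells given PBS as control, 3 given 5 mM βOHB and 3 given 5 mM butyrate, all for 6 h, which makes 12 groups and 36 libraries. Both compounds are short carboxylic acids with the same carbon chain, and βOHB carries a hydroxyl group that butyrate lacks. βOHB is the main circulating ketone body, and butyrate, a product of gut bacteria, inhibits histone deacetylases. All cells came from male C57Bl/6 mice (C57BL/6NHsd for the hepatocytes, by the study's methods), and none is described as genetically altered. Adipocytes were made from stromal vascular cells of inguinal fat, pooled from several mice, with rosiglitazone, an agonist of PPARγ, in the induction cocktail, so all adipocyte groups had met that drug. Macrophages were derived from bone marrow with L929-conditioned medium, and myotubes from hindlimb myoblasts. Hepatocytes were obtained by collagenase perfusion and rested overnight. Adipocytes and macrophages were treated in DMEM, myotubes in differentiation medium with horse serum and hepatocytes in Williams E medium. Cell type, donor and culture protocol cannot be told apart in any comparison between cell types. Nor can treatment medium, save between adipocytes and macrophages. No source states that the replicates of a group came from separate animals or cultures, so the P values measure the spread between these libraries, which may be technical.

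Library totals ran from 18366289 to 23221473 estimated counts. Values are CPM, counts as a share of edgeR's TMM-scaled library size, unless said otherwise, and a gene is called when its adjusted P lies below 0.05 over all tested genes of a comparison. Each cell type had its own defining markers high, among them 2943 to 3241 CPM summed over 6 adipocyte markers in adipocyte controls. That sum was 1646 to 1840.1 CPM in adipocytes with butyrate. In macrophages 8 macrophage markers came to 17365 to 17541 CPM in the controls and 10608 to 11153 CPM with butyrate. In myotubes 8 myotube markers came to 26039 to 31808 CPM in the controls and 17280.5 to 23288 CPM with butyrate. The 8 hepatocyte markers went from 37568 to 39379 to 41776 to 44226 CPM in hepatocytes. Hepatocyte libraries summed to 295 to 341 CPM over 8 macrophage markers in the controls and 136 to 155 CPM with butyrate, and macrophage libraries to 1395 to 1429 and 558 to 657 CPM over 4 proliferation markers. Endothelial markers (4 genes) fell in sum from 62.7 to 70.6 to 19.7 to 22.8 CPM in hepatocytes, and adipocyte markers went from 13.4 to 15.0 to 47.4 to 50.5 CPM there, with Lep and Retn at 0. In myotubes the macrophage sum was 109 to 281 CPM in the controls, 44.6 to 107 CPM with βOHB and 16.3 to 70.5 CPM with butyrate. Hepatocyte transcripts were also seen in myotube libraries. Summed over 8 hepatocyte markers they came to 31.9, 571 and 131 CPM in the butyrate libraries, to 0.0918, 0.0444 and 25.2 CPM with βOHB and to at most 0.176 CPM in the controls, where 6 of the 8 (Apoa1, Ttr, Hnf4a, Tat, Serpina1c and Cyp3a11) were at 0. Butyrate replicate 2 thus held 1.63% of the level of a hepatocyte library. The part these shifts in markers play in the results was not tested, except where a value with the hepatocyte share taken out is given. Some libraries stood apart from their group. By the mean chi-square per gene between replicates, myotube butyrate replicate 3 differed from replicates 1 and 2 by 37.0 and 41.7, against 8.57 between those, and adipocyte control replicate 1 from replicates 2 and 3 by 16.3 and 13.2, against 3.51. In such bulk samples, fewer cells of a type and less RNA per cell cannot be told apart.

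The controls show in which cell type, with its donor, medium and culture protocol, RNA of these genes was highest without either compound. Summed over the 32 members, they held 6447 ± 368 CPM (SD, n = 3) in adipocytes, 3681 ± 70.6 in hepatocytes, 3223 ± 148 in myotubes and 1993 ± 7.79 in macrophages. Adipocytes had the highest level for 21 of the 32 members, hepatocytes for 8, myotubes for 2 (Acadl and Acsl3) and macrophages for 1 (Ucp2). Macrophages were lowest for 22. Among the 19 mitochondrial members, 16 were highest in adipocytes and 17 lowest in macrophages, whereas the 3 peroxisomal enzymes were each highest in hepatocytes and lowest in myotubes. Of the 192 pairs of cell types (6 for each member), 180 were called different, where 81.3% of the pairs over all tested genes were. The 12 pairs not told apart were adipocytes and hepatocytes for Eci2, Ehhadh and Acsl3, myotubes and hepatocytes for Hadhb, adipocytes and myotubes for Cpt1b, Pdk4 and Acot1, macrophages and adipocytes for Acsl4 and Acot1, macrophages and hepatocytes for Acot1 and Ucp3, and macrophages and myotubes for Acaa1a. Leaving out 1 control library at a time left 179 to 182 pairs called.

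**Figure D1:**
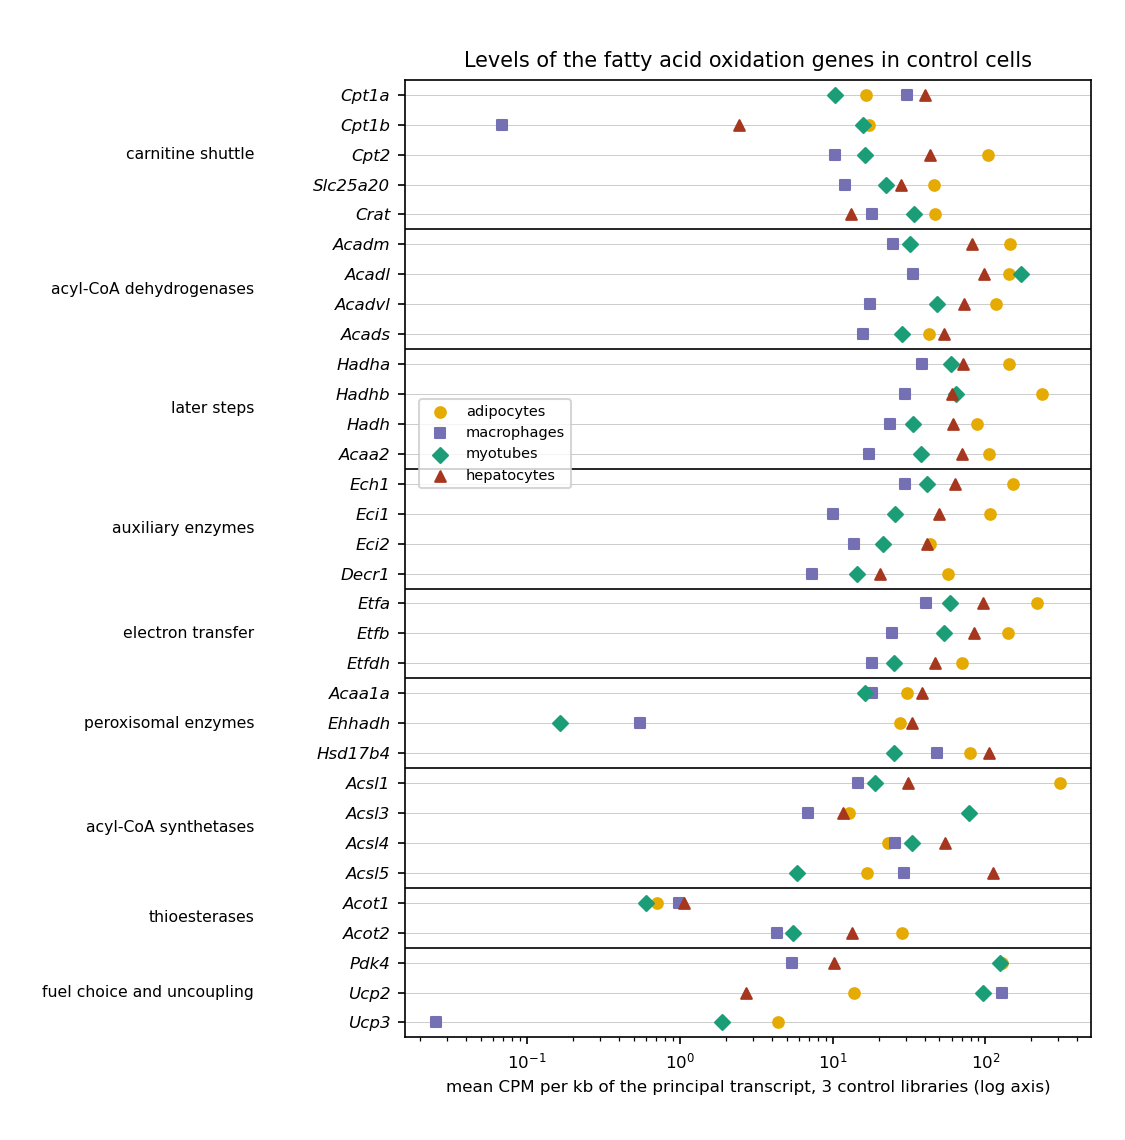
Mean CPM per kb of principal transcript in the 3 control libraries of each cell type, on a log axis, for the 32 members. Adipocytes sit at the right for most mitochondrial members, Ucp2 is highest in macrophages at 129 CPM per kb, and Ucp3, listed at 0 in hepatocytes, has no point there.

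Per kb of principal transcript, which allows genes to be compared, Acsl1 led in adipocytes at 308 CPM per kb, followed by Hadhb at 235. Acsl1 is the main acyl-CoA synthetase of fat cells. Acadl, the long-chain acyl-CoA dehydrogenase, led in myotubes at 170.1 CPM per kb and Pdk4 came next at 125. In hepatocytes Acsl5 (112) and Hsd17b4 (106) stood first, and in macrophages Ucp2 (129) and Hsd17b4 (48.4). At the other end, Ehhadh had 0.165 CPM per kb in myotubes against 32.9 in hepatocytes. The liver and muscle forms of carnitine palmitoyltransferase also parted: Cpt1a was at 40.5 CPM per kb in hepatocytes and 10.4 in myotubes, and Cpt1b at 2.44 and 15.9.

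Butyrate moved most members of the pathway, and in both directions. In adipocytes 11 of 32 members rose and 10 fell, where 30.7% of all tested genes rose and 30.3% fell. In macrophages 19 rose and 8 fell, against 31.9% and 33.2% of all genes. In myotubes 13 rose and 8 fell, against 33.1% and 33.4%. In hepatocytes 19 rose and 7 fell, against 31.0% and 32.4%. The median log2 fold change of the members was 0.01, 0.30, 0.03 and 0.37 in adipocytes, macrophages, myotubes and hepatocytes, and that of all tested genes lay between -0.01 and 0. Scaling by library totals alone, which put the log2 median over all tested genes at 0.202 in macrophages and 0.133 in myotubes, gave 15 rising and 5 falling members in adipocytes, 20 and 4 in macrophages, 17 and 6 in myotubes and 20 and 5 in hepatocytes. Leaving out 1 library at a time gave 16 to 19 called members in adipocytes, 24 to 26 in macrophages, 19 to 24 in myotubes and 23 to 28 in hepatocytes.

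**Figure D2:**
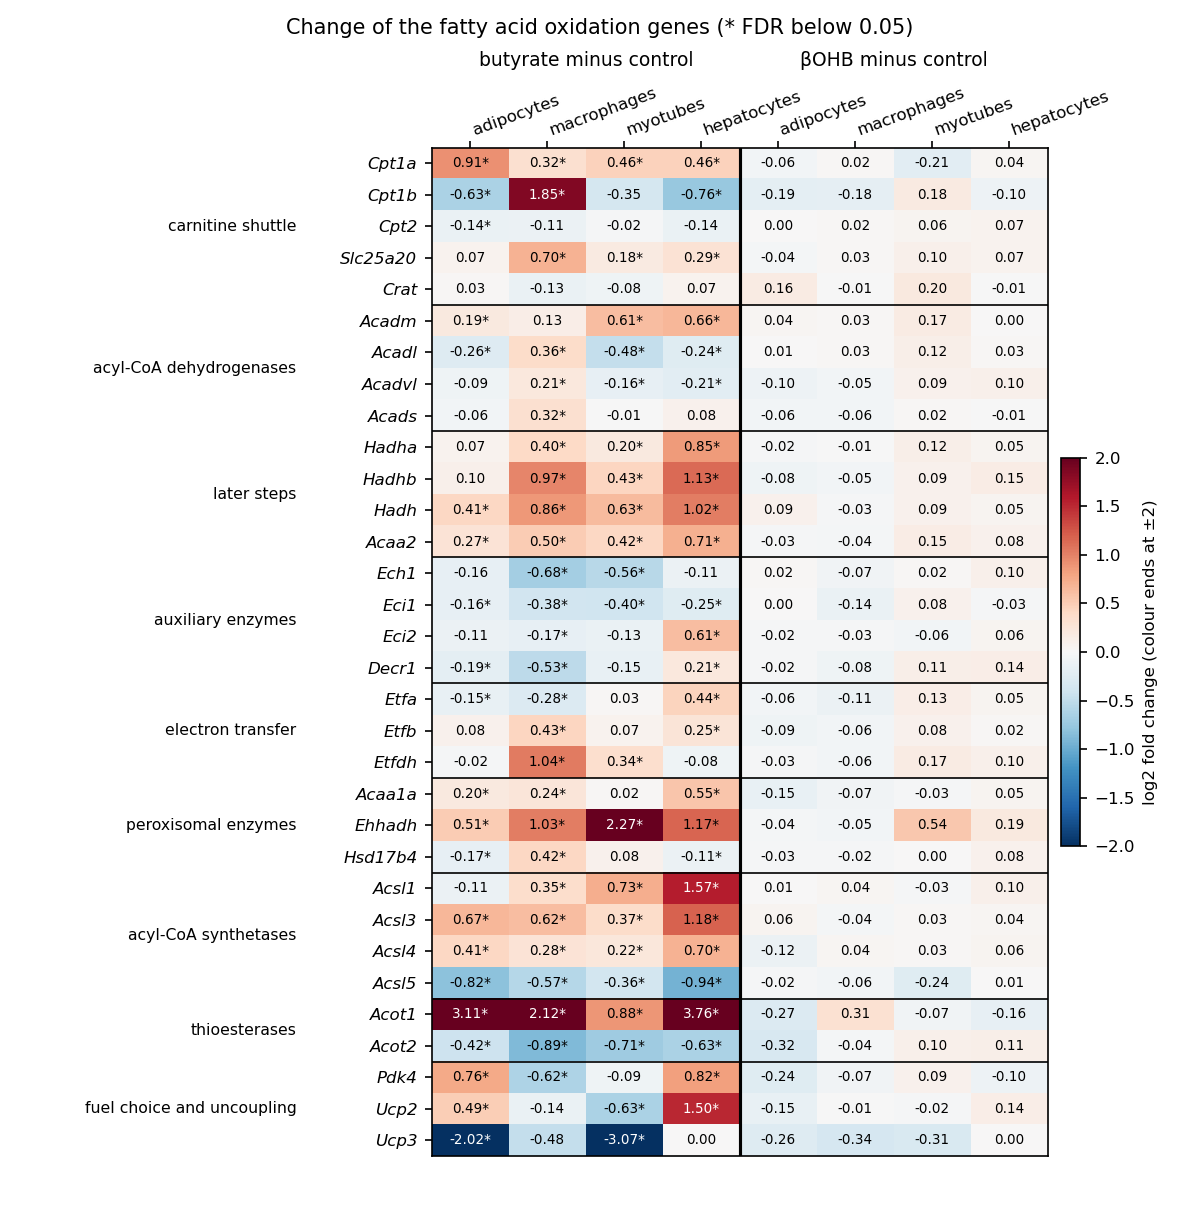
Log2 fold change of each of the 32 members under butyrate and under βOHB against the controls of the same cell type, with an asterisk at an adjusted P below 0.05. The butyrate columns hold all of the asterisks, and Cpt1a, Ehhadh and Hadh rise in each cell type while Acsl5, Acot2 and Eci1 fall.

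Under library totals alone the called values in macrophages shifted upwards, and 10 of the rises and 2 of the falls given here moved by over 1.5 times without losing their call. The log2 fold changes then were 0.54 for Cpt1a, 0.44 for Acadvl, 0.63 for Hadha, 0.65 for Hsd17b4, 0.57 for Acsl1, 0.58 for Acadl, 0.55 for Acads, 0.65 for Etfb, 0.47 for Acaa1a and 0.50 for Acsl4. The falls came to -0.30 for Decr1 and -0.35 for Acsl5. In myotubes the same scaling gave 0.34 for Hadha, 0.31 for Slc25a20 and 0.35 for Acsl4, and in adipocytes -0.17 for Acadl.

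10 of the members were called in the same direction in all 4 cell types. Cpt1a, Hadh, Acaa2, Ehhadh, Acsl3, Acsl4 and Acot1 rose in all 4 cell types, though the sum of Acot1 and its near copy Acot2 did not rise in adipocytes or myotubes, and Eci1, Acsl5 and Acot2 fell in all 4. Of all tested genes, 12.5% rose and 12.7% fell in all 4. The 10 share the sign of the call and not its size: for 8 of them, all but Eci1 and Acot2, the effect differed among cell types by the interaction test. Another 9 members rose in some cell types without falling in any, and Cpt2, Ech1 and Ucp3 fell in some without rising in any, as did 22.8% and 25.9% of all tested genes. A further 9 (Cpt1b, Acadl, Acadvl, Eci2, Decr1, Etfa, Hsd17b4, Pdk4 and Ucp2) were called in opposite directions in different cell types, as were 19.3% of all tested genes. Of the 9, Eci2 turned in macrophages under scaling by library totals alone. Crat, carnitine acetyltransferase, was called in none, as were 6.86% of all tested genes.

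Set apart by organelle, the 19 mitochondrial members gave 4 rising and 6 falling in adipocytes, 12 and 4 in macrophages, 8 and 4 in myotubes, and 10 and 4 in hepatocytes, with medians of -0.02, 0.32, 0.03 and 0.21 on the log2 scale. Of all tested genes, 30.7%, 31.9%, 33.1% and 31.0% rose in the same order, and 30.3%, 33.2%, 33.4% and 32.4% fell. The adipocyte count came to 4 rising and 2 falling without control replicate 2 or without butyrate replicate 1. Of the 3 peroxisomal enzymes, 2 rose and 1 fell in adipocytes, 3 rose in macrophages, 1 rose in myotubes, and 2 rose and 1 fell in hepatocytes. Their medians were 0.20, 0.42, 0.08 and 0.55. Summed over the mitochondrial set, RNA went from 2147 ± 66.0 to 2872 ± 61.1 CPM (SD, n = 3) in hepatocytes and from 916 ± 11.4 to 1164 ± 17.1 CPM in macrophages. The sums in adipocytes (3998 ± 123 and 4074 ± 92.9 CPM) and myotubes (1668 ± 81.6 and 1728 ± 118 CPM) differed by less than their SDs combined.

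The carnitine shuttle carries long acyl chains into mitochondria. Its entry enzyme in most tissues, Cpt1a (chr19:3322334-3385733, plus strand, GRCm38), rose in all 4 cell types. In adipocytes, Cpt1a stood at 74.0, 67.8 and 71.4 CPM in the controls and at 134, 133 and 133 CPM with butyrate (log2 fold change 0.91 ± 0.10, adjusted P = 3.43e-09), against 61.5 to 73.0 CPM with βOHB. Every butyrate library was far above every other adipocyte library. In macrophages, Cpt1a stood at 131, 132 and 134 CPM in the controls and at 172, 169 and 154 CPM with butyrate (log2 fold change 0.32 ± 0.10, adjusted P = 0.0052), against 119.6 to 142 CPM with βOHB. In myotubes, Cpt1a stood at 48.2, 44.8 and 41.4 CPM in the controls and at 55.0, 51.1 and 79.3 CPM with butyrate (log2 fold change 0.46 ± 0.10, adjusted P = 0.000242), against 37.6 to 39.6 CPM with βOHB. In hepatocytes, Cpt1a stood at 164, 181 and 181 CPM in the controls and at 243, 244 and 235 CPM with butyrate (log2 fold change 0.46 ± 0.10, adjusted P = 0.000142), against 162 to 194 CPM with βOHB. In these 3 cell types too the butyrate libraries lay above all controls without overlap, and in myotubes butyrate replicate 3 stood highest and the βOHB libraries lay below all controls. Without that butyrate library the Cpt1a log2 fold change in myotubes was 0.24 (adjusted P = 0.00954). Cpt2, which reforms acyl-CoA on the inner membrane, differed from Cpt1a in size and direction. Cpt2 in adipocytes was at 239, 247 and 256 CPM in the controls and at 224, 215 and 233 CPM with butyrate (log2 fold change -0.14 ± 0.06, adjusted P = 0.0454). Cpt2 in hepatocytes was at 103, 108 and 95.9 CPM in the controls and at 93.6, 92.8 and 92.4 CPM with butyrate (log2 fold change -0.14 ± 0.06, adjusted P = 0.0506). Cpt2 in macrophages was at 25.0, 24.9 and 23.7 CPM in the controls and at 23.6, 22.6 and 22.2 CPM with butyrate (log2 fold change -0.11 ± 0.07, adjusted P = 0.193). The butyrate libraries were the lower in these 3, by little and with no overlap. Cpt2 in myotubes was at 35.6, 40.6 and 40.3 CPM in the controls and at 39.3, 40.3 and 35.0 CPM with butyrate (log2 fold change -0.02 ± 0.07, adjusted P = 0.766). The Cpt2 call in adipocytes was lost without control replicate 2, control replicate 3, butyrate replicate 1 or butyrate replicate 2 (-0.14 to -0.10, adjusted P from 0.08 to 0.205) and with DESeq2, under RLE scaling, under scaling by library totals alone or with no filter on low counts (-0.18 to -0.05, adjusted P from 0.0518 to 0.409). Cpt2 in hepatocytes was called with limma-voom, with the replicate block and without control replicate 3 (-0.19 to -0.14, adjusted P from 0.0188 to 0.0477).

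Cpt1b (chr15:89416405-89425863, minus strand), the muscle form of the entry enzyme, did not follow Cpt1a. In adipocytes, Cpt1b stood at 63.8, 40.6 and 46.5 CPM in the controls and at 32.7, 32.7 and 32.2 CPM with butyrate (log2 fold change -0.63 ± 0.19, adjusted P = 0.00467), against 35.2 to 48.4 CPM with βOHB. The spread of the controls was wide, with replicate 1 the highest. In myotubes, Cpt1b stood at 39.9, 51.3 and 46.5 CPM in the controls and at 35.9, 42.0 and 30.1 CPM with butyrate (log2 fold change -0.35 ± 0.19, adjusted P = 0.0994), against 50.1 to 54.7 CPM with βOHB. Here the groups overlapped and the gene was not called. In hepatocytes, Cpt1b stood at 8.15, 7.13 and 5.91 CPM in the controls and at 4.13, 4.51 and 3.78 CPM with butyrate (log2 fold change -0.76 ± 0.29, adjusted P = 0.024), against 5.32 to 7.69 CPM with βOHB. In macrophages Cpt1b is near its limit of detection, with 0.593, 0 and 0 CPM in the controls, 0, 0.563 and 0 CPM with βOHB and 1.09, 0.741 and 0.507 CPM with butyrate (log2 fold change 1.85 ± 0.77, adjusted P = 0.0349). Most of the Cpt1b transcript (79.7% of its 31-base words) is also part of the overlapping gene model Gm44502, whose mean went from 0.418 to 0.0845 CPM in macrophages. The Cpt1b call in adipocytes was lost without control replicate 1 (-0.42, adjusted P = 0.0658). The Cpt1b call in macrophages was lost without control replicate 2, control replicate 3, butyrate replicate 1 or butyrate replicate 2 (1.25 to 1.91, adjusted P from 0.0523 to 0.159) and when that cell type was fitted alone or with the overlapping gene summed in (0.47 to 1.91, adjusted P from 0.0717 to 0.337). The Cpt1b call in hepatocytes was lost without control replicate 1, control replicate 2, butyrate replicate 1 or butyrate replicate 3 (-0.76 to -0.65, adjusted P from 0.0504 to 0.0942) and with limma-voom (-0.75, adjusted P = 0.0922). With limma-voom the macrophage value was 3.42 (adjusted P = 0.0106). Without macrophage control replicate 1 all remaining Cpt1b controls are at 0, so that fold has no finite value. Cpt1b in myotubes, by contrast, was called without butyrate replicate 2 and in 4 other settings (limma-voom, no filter on low counts, myotubes fitted alone and the overlapping gene summed in), at -0.48 to -0.32, adjusted P from 6.38e-05 to 0.0441. Under library totals alone the myotube value shrank to -0.21 (adjusted P = 0.31).

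Slc25a20, the carrier that swaps acylcarnitine for carnitine across the inner membrane, rose in macrophages (20.9, 21.4 and 22.6 CPM in the controls, 33.2, 35.4 and 37.2 CPM with butyrate, log2 fold change 0.70 ± 0.07, adjusted P = 8.24e-11). It also rose in hepatocytes (log2 fold change 0.29, adjusted P = 0.000146) and myotubes (0.18, adjusted P = 0.0129), but stood at 0.07 (adjusted P = 0.307) in adipocytes. Over the 5 genes of the shuttle, 1 rose and 2 fell in adipocytes, 3 rose and 0 fell in macrophages, 2 rose and 0 fell in myotubes and 2 rose and 1 fell in hepatocytes. The shares of all tested genes are those given with the organelle sets. Crat lay between -0.13 and 0.07 on the log2 scale and was called in no cell type. The Slc25a20 call in myotubes was lost with no filter on low counts (0.11, adjusted P = 0.343).

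The acyl-CoA dehydrogenases open each round of β-oxidation and differ in the chain lengths they take. Acadm, the medium-chain enzyme (chr3:153922357-153944632, minus strand), rose in 3 cell types. In adipocytes, Acadm stood at 274, 309.7 and 305 CPM in the controls and at 321, 357 and 333 CPM with butyrate (log2 fold change 0.19 ± 0.06, adjusted P = 0.0112), against 287 to 322 CPM with βOHB. In myotubes, Acadm stood at 60.8, 70.2 and 66.6 CPM in the controls and at 105, 107 and 89.1 CPM with butyrate (log2 fold change 0.61 ± 0.07, adjusted P = 1.94e-09), against 72.2 to 76.0 CPM with βOHB. In hepatocytes, Acadm stood at 173, 169 and 160.1 CPM in the controls and at 269.7, 259 and 261 CPM with butyrate (log2 fold change 0.66 ± 0.06, adjusted P = 2.04e-10), against 166 to 167 CPM with βOHB. The butyrate libraries lay above all controls in each, and in hepatocytes by the widest margin. In macrophages, Acadm stood at 49.7, 52.0 and 50.5 CPM in the controls and at 56.2, 54.5 and 55.7 CPM with butyrate (log2 fold change 0.13 ± 0.07, adjusted P = 0.0917), against 49.1 to 56.2 CPM with βOHB. There the groups did not overlap either, but the difference was not called. The Acadm call in adipocytes was lost without control replicate 1 or butyrate replicate 2 (0.13 to 0.15, adjusted P from 0.0654 to 0.0931) and with no filter on low counts (0.15, adjusted P = 0.164). Acadm in macrophages was called with DESeq2, RLE scaling, library totals alone and macrophages fitted alone (0.15 to 0.35, adjusted P from 2.12e-05 to 0.049).

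Acadvl, the very-long-chain dehydrogenase of the inner membrane, moved little and in no shared direction. Acadvl in macrophages was at 38.2, 38.7 and 37.0 CPM in the controls and at 43.2, 41.9 and 46.8 CPM with butyrate (log2 fold change 0.21 ± 0.08, adjusted P = 0.0167). Acadvl in hepatocytes was at 158, 168 and 147 CPM in the controls and at 139, 138 and 131 CPM with butyrate (log2 fold change -0.21 ± 0.07, adjusted P = 0.0106). Acadvl in myotubes was at 102, 108 and 101 CPM in the controls and at 95.5, 102 and 81.0 CPM with butyrate (log2 fold change -0.16 ± 0.07, adjusted P = 0.047). The myotube groups overlapped. Acadvl in adipocytes was at 277, 239.6 and 253 CPM in the controls and at 239, 245 and 237 CPM with butyrate (log2 fold change -0.09 ± 0.07, adjusted P = 0.26). The Acadvl call in macrophages was lost without control replicate 3 or butyrate replicate 3 (0.18 to 0.19, adjusted P from 0.0567 to 0.0629) and with no filter on low counts (0.20, adjusted P = 0.0552). The Acadvl call in myotubes was lost without control replicate 1, control replicate 2, control replicate 3 or butyrate replicate 3 (-0.18 to -0.08, adjusted P from 0.0555 to 0.358) and with DESeq2, under RLE scaling, under scaling by library totals alone, when that cell type was fitted alone or with the hepatocyte share taken out (-0.16 to -0.03, adjusted P from 0.0517 to 0.718). The Acadvl call in hepatocytes was lost without control replicate 2 (-0.17, adjusted P = 0.0712) and under scaling by library totals alone or when that cell type was fitted alone (-0.18 to -0.14, adjusted P from 0.0505 to 0.0606). A stretch of 33.2% of its 31-base words also belongs to Dvl2, which overlaps it on the opposite strand, and no source states that counting used strand. Acadl, the long-chain enzyme, had a firmer split. Its log2 fold change was -0.26 in adipocytes, 0.36 in macrophages, -0.48 in myotubes and -0.24 in hepatocytes, and its libraries did not overlap in any of the 4. In myotubes, where Acadl is the highest member per kb, it was at 313, 334 and 331 CPM in the controls and 245, 243 and 213 CPM with butyrate. Acads, for short chains, rose in macrophages (log2 fold change 0.32 ± 0.06, adjusted P = 4.5e-05) and lay between -0.06 and 0.08 in the other cell types. Over the 4 genes, 1 rose and 1 fell in adipocytes, 3 rose and 0 fell in macrophages, 1 rose and 2 fell in myotubes and 1 rose and 2 fell in hepatocytes, beside the shares of all tested genes given with the organelle sets.

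The enzymes of the later steps rose the most uniformly of the mitochondrial set. Of Hadha, Hadhb, Hadh and Acaa2, all 4 rose in macrophages, myotubes and hepatocytes, where 31.9%, 33.1% and 31.0% of all tested genes rose. Hadh and Acaa2 rose in adipocytes as well (30.7% of all tested genes). Hadha and Hadhb code for the α and β subunits of the trifunctional protein, which carries out the last steps on long chains. In macrophages, Hadha stood at 155, 153 and 156 CPM in the controls and at 211, 206 and 196 CPM with butyrate (log2 fold change 0.40 ± 0.07, adjusted P = 9.09e-06), against 147 to 158 CPM with βOHB. In hepatocytes, Hadha stood at 276, 296 and 283 CPM in the controls and at 511, 535 and 493 CPM with butyrate (log2 fold change 0.85 ± 0.07, adjusted P = 5.24e-12), against 268 to 323 CPM with βOHB. In myotubes, Hadha stood at 223, 246 and 252 CPM in the controls and at 291, 287 and 252 CPM with butyrate (log2 fold change 0.20 ± 0.07, adjusted P = 0.0117), against 256 to 266 CPM with βOHB. The groups were apart in macrophages and hepatocytes, while in myotubes butyrate replicate 3 equalled the highest control. In adipocytes, Hadha stood at 627, 520.2 and 564 CPM in the controls and at 600.4, 595 and 597 CPM with butyrate (log2 fold change 0.07 ± 0.07, adjusted P = 0.422), against 527 to 592 CPM with βOHB. The Hadha call in myotubes was lost without control replicate 1 or butyrate replicate 1 (0.15 to 0.16, adjusted P from 0.0624 to 0.0842) and with no filter on low counts (0.14, adjusted P = 0.226). Scaling by library totals alone called Hadha in adipocytes as well (0.16, adjusted P = 0.0251).

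Hadhb rose by more than Hadha in macrophages and hepatocytes. In hepatocytes, Hadhb stood at 115, 136 and 120.2 CPM in the controls and at 275, 274 and 264 CPM with butyrate (log2 fold change 1.13 ± 0.07, adjusted P = 2.48e-14), against 126 to 154 CPM with βOHB. Each butyrate library was above every other hepatocyte library. Its log2 fold change was 0.97 ± 0.07 in macrophages, 0.43 ± 0.07 in myotubes and 0.10 ± 0.07 (adjusted P = 0.215) in adipocytes. Of the 31-base words of Hadhb, 23.7% lie in other genes, 19.5% in Gm13910, and summed with Gm13910 it kept its calls. Hadh, the hydroxyacyl-CoA dehydrogenase for shorter chains, was one of the members called everywhere. In hepatocytes, Hadh stood at 107, 112 and 109.8 CPM in the controls and at 225, 224 and 215 CPM with butyrate (log2 fold change 1.02 ± 0.07, adjusted P = 2.07e-14), against 102 to 127 CPM with βOHB. Its log2 fold change was 0.41 in adipocytes, 0.86 in macrophages and 0.63 in myotubes, with no overlap between control and butyrate libraries. Acaa2, the mitochondrial thiolase, came to 0.27 in adipocytes, 0.50 in macrophages, 0.42 in myotubes and 0.71 in hepatocytes.

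Hadha (chr5:30118304-30155162, minus strand) and Hadhb (chr5:30155248-30184593, plus strand) lie head to head, and their annotated ends are 85 bases apart. The window from 250 bases before to 50 after the RefSeq start of Hadhb (chr5:30155003-30155302, GRCm38.p6, plus strand) holds the bases between these ends, though not all of those between the 2 RefSeq starts, and is shown because the pair rose together in 3 cell types. Capitals mark matches to the GC box (GGGCGG, either strand).

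Hadhb: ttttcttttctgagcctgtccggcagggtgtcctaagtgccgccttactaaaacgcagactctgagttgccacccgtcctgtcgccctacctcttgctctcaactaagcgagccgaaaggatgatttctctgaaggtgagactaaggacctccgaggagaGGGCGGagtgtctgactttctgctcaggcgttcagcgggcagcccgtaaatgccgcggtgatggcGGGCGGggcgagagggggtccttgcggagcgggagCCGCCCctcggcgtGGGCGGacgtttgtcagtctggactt

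The auxiliary enzymes let unsaturated chains pass through the cycle by moving or reducing their extra bonds. Of Ech1, Eci1, Eci2 and Decr1, 0 rose and 2 fell in adipocytes, 0 rose and 4 fell in macrophages, 0 rose and 2 fell in myotubes and 2 rose and 1 fell in hepatocytes, where 30.3%, 33.2%, 33.4% and 32.4% of all tested genes fell. The macrophage count was 2 under scaling by library totals alone. Eci1, an enoyl-CoA isomerase of the matrix, fell in all 4, with log2 fold changes of -0.16 in adipocytes, -0.38 in macrophages, -0.40 in myotubes and -0.25 in hepatocytes. Ech1, a dienoyl-CoA isomerase, fell in macrophages (35.7, 38.1 and 38.9 CPM in the controls, 24.1, 22.4 and 23.7 CPM with butyrate, log2 fold change -0.68 ± 0.10, adjusted P = 5.31e-07) and in myotubes (log2 fold change -0.56 ± 0.10, adjusted P = 7.02e-06). Decr1, the dienoyl-CoA reductase, fell in adipocytes (-0.19) and macrophages (-0.53) but rose in hepatocytes (0.21). Eci2 stood at 76.2, 74.8 and 66.6 CPM in hepatocyte controls and 116, 109 and 107 CPM with butyrate (log2 fold change 0.61 ± 0.06, adjusted P = 1.37e-10), with no overlap. Of its 31-base words, 17.3% lie in other genes, so that its level is less certain. In macrophages Eci2 was called lower (log2 fold change -0.17 ± 0.06, adjusted P = 0.026), a direction that turned under scaling by library totals alone (0.06, adjusted P = 0.358). The Eci1 call in adipocytes was lost without control replicate 2, butyrate replicate 1 or butyrate replicate 3 (-0.16 to -0.10, adjusted P from 0.0719 to 0.225) and under RLE scaling, under scaling by library totals alone or when that cell type was fitted alone (-0.16 to -0.08, adjusted P from 0.0542 to 0.319). The Eci1 call in macrophages was lost under scaling by library totals alone (-0.16, adjusted P = 0.0999). The Eci2 call in macrophages was lost without control replicate 2, control replicate 3, butyrate replicate 2 or butyrate replicate 3 (-0.16 to -0.11, adjusted P from 0.0558 to 0.179) and with DESeq2, under scaling by library totals alone, with no filter on low counts or when that cell type was fitted alone (-0.18 to 0.06, adjusted P from 0.0615 to 0.358). The Decr1 call in adipocytes was lost without control replicate 1, control replicate 2 or butyrate replicate 1 (-0.17, adjusted P from 0.0563 to 0.0577) and under scaling by library totals alone (-0.10, adjusted P = 0.169). The Decr1 call in hepatocytes was lost without butyrate replicate 1 (0.17, adjusted P = 0.0657). The count in adipocytes fell to 0 without control replicate 2 or butyrate replicate 1, and the count in myotubes rose to 4 without control replicate 1 or butyrate replicate 2.

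The electron transfer flavoprotein takes electrons from the dehydrogenases and passes them to ubiquinone through Etfdh. In macrophages Etfdh was the called mitochondrial member with the steepest rise among those above 1 CPM. In macrophages, Etfdh stood at 43.1, 43.5 and 43.1 CPM in the controls and at 91.7, 89.6 and 84.7 CPM with butyrate (log2 fold change 1.04 ± 0.06, adjusted P = 1.31e-15), against 40.4 to 42.2 CPM with βOHB. The groups were far apart, and no macrophage library without butyrate passed the lowest butyrate value. Etfdh rose less in myotubes (log2 fold change 0.34 ± 0.06, adjusted P = 7.6e-06) and was at -0.02 and -0.08 in adipocytes and hepatocytes, without a call. Etfa, the α subunit, rose in hepatocytes (0.44, adjusted P = 6.11e-07), fell in macrophages (-0.28, adjusted P = 0.000595) and adipocytes (-0.15, adjusted P = 0.0421), and stood at 0.03 in myotubes. Etfb, the β subunit, rose in macrophages (0.43) and hepatocytes (0.25), though 47.3% of its 31-base words also lie in the overlapping model Gm45233. The Etfa call in adipocytes was lost without control replicate 1, control replicate 2, butyrate replicate 1, butyrate replicate 2 or butyrate replicate 3 (-0.17 to -0.13, adjusted P from 0.0512 to 0.136) and with DESeq2, under RLE scaling or under scaling by library totals alone (-0.13 to -0.06, adjusted P from 0.0596 to 0.482). The Etfa call in macrophages was lost under scaling by library totals alone (-0.06, adjusted P = 0.529).

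In peroxisomes, Ehhadh and Hsd17b4 each code for a bifunctional enzyme that hydrates and dehydrogenates the chain, with opposite stereochemistry, and Acaa1a for a thiolase. Ehhadh (chr16:21761287-21787807, minus strand), a well-known target of PPARα in liver, rose in all 4 cell types. In hepatocytes, Ehhadh stood at 100.2, 117 and 77.3 CPM in the controls and at 228, 229.9 and 203 CPM with butyrate (log2 fold change 1.17 ± 0.15, adjusted P = 3.31e-08), against 92.6 to 129.6 CPM with βOHB. In adipocytes, Ehhadh stood at 85.2, 86.3 and 76.9 CPM in the controls and at 105, 121 and 126 CPM with butyrate (log2 fold change 0.51 ± 0.15, adjusted P = 0.00332), against 75.1 to 90.3 CPM with βOHB. In macrophages, Ehhadh stood at 1.74, 1.71 and 1.47 CPM in the controls and at 3.78, 3.55 and 2.75 CPM with butyrate (log2 fold change 1.03 ± 0.32, adjusted P = 0.0053), against 1.36 to 1.79 CPM with βOHB. The butyrate libraries lay above all controls in each, although the macrophage level stayed low. Acaa1a rose in hepatocytes (log2 fold change 0.55 ± 0.09, adjusted P = 1.49e-06), macrophages (0.24, adjusted P = 0.0186) and adipocytes (0.20, adjusted P = 0.0478), and was at 0.02 in myotubes. It shares 16.9% of its 31-base words with its near copy Acaa1b. The Acaa1a call in adipocytes was lost without control replicate 1, control replicate 3, butyrate replicate 2 or butyrate replicate 3 (0.13 to 0.20, adjusted P from 0.0723 to 0.234) and with no filter on low counts, with filterByExpr or with its copy summed in (0.08 to 0.19, adjusted P from 0.0691 to 0.467). The Acaa1a call in macrophages was lost without butyrate replicate 3 (0.13, adjusted P = 0.196).

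Ehhadh in myotubes was the largest log2 fold change among the peroxisomal members, at a very low level. The controls had 0.642, 0.528 and 0.308 CPM, the βOHB libraries 0.597, 0.8 and 0.754 CPM and the butyrate libraries 1.14, 4.21 and 1.79 CPM (log2 fold change 2.27 ± 0.44, adjusted P = 4.62e-05). Each butyrate library was above all others, and replicate 2, with the most hepatocyte transcripts, was the highest. Without that library the log2 fold change was 1.55 (adjusted P = 0.00237), and with the hepatocyte share of each myotube library taken out, a check added after seeing the data, it was 1.21 (adjusted P = 0.00831).

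**Figure D3:**
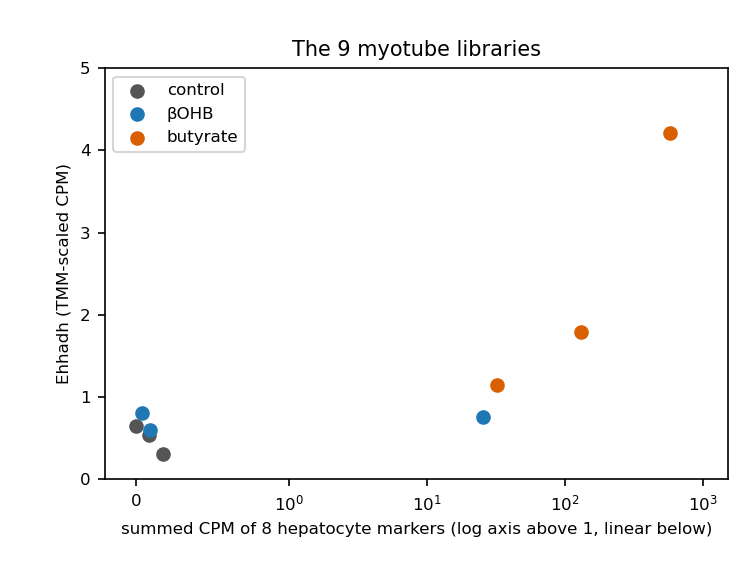
Ehhadh in CPM against the summed CPM of 8 hepatocyte markers in the 9 myotube libraries. The butyrate libraries have the highest values on both axes, and butyrate replicate 2, at 571 CPM of hepatocyte markers, has 4.21 CPM of Ehhadh.

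Hsd17b4, the other bifunctional enzyme, rose with Ehhadh in macrophages but fell in adipocytes and hepatocytes, where Ehhadh rose. In macrophages, Hsd17b4 stood at 132, 129 and 129 CPM in the controls and at 179, 164 and 179 CPM with butyrate (log2 fold change 0.42 ± 0.05, adjusted P = 2.24e-09), against 124 to 131 CPM with βOHB. In adipocytes, Hsd17b4 stood at 223, 205 and 212 CPM in the controls and at 189.7, 189.9 and 191 CPM with butyrate (log2 fold change -0.17 ± 0.05, adjusted P = 0.00228), against 201 to 217 CPM with βOHB. In hepatocytes, Hsd17b4 stood at 279.8, 292 and 279 CPM in the controls and at 264, 260.0 and 263 CPM with butyrate (log2 fold change -0.11 ± 0.05, adjusted P = 0.0344), against 282 to 312 CPM with βOHB. Control and butyrate libraries did not overlap in any of these, and both falls were small. Hsd17b4 in myotubes was at 67.4, 67.3 and 67.3 CPM in the controls and at 69.4, 70.3 and 74.5 CPM with butyrate (log2 fold change 0.08 ± 0.05, adjusted P = 0.117). The Hsd17b4 call in adipocytes was lost under scaling by library totals alone (-0.08, adjusted P = 0.149). The Hsd17b4 call in hepatocytes was lost without control replicate 2, butyrate replicate 1, butyrate replicate 2 or butyrate replicate 3 (-0.12 to -0.09, adjusted P from 0.056 to 0.129) and under RLE scaling, under scaling by library totals alone, with no filter on low counts, with filterByExpr or when that cell type was fitted alone (-0.10 to -0.04, adjusted P from 0.0677 to 0.45). Hsd17b4 in myotubes was called with DESeq2, RLE scaling and library totals alone (0.12 to 0.22, adjusted P from 0.000137 to 0.0326).

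Acyl-CoA synthetases activate fatty acids at the start of oxidation and of lipid synthesis alike. Acsl1 (chr8:46471037-46536051, plus strand) rose in 3 cell types, most in hepatocytes. In hepatocytes, Acsl1 stood at 109, 131 and 122 CPM in the controls and at 368, 365 and 344 CPM with butyrate (log2 fold change 1.57 ± 0.07, adjusted P = 1.76e-18), against 118 to 135 CPM with βOHB. In myotubes, Acsl1 stood at 70.0, 75.5 and 76.9 CPM in the controls and at 129.5, 131 and 109 CPM with butyrate (log2 fold change 0.73 ± 0.07, adjusted P = 7.95e-11), against 71.1 to 74.7 CPM with βOHB. In macrophages, Acsl1 stood at 57.0, 57.6 and 56.6 CPM in the controls and at 74.9, 71.8 and 70.7 CPM with butyrate (log2 fold change 0.35 ± 0.07, adjusted P = 5.34e-05), against 57.6 to 60.5 CPM with βOHB. In each the butyrate libraries were above all others, and in hepatocytes 2.97-fold the control mean. In adipocytes, Acsl1 stood at 1203, 1189 and 1207 CPM in the controls and at 1117, 1063 and 1147 CPM with butyrate (log2 fold change -0.11 ± 0.07, adjusted P = 0.137), against 1169 to 1243 CPM with βOHB. Adipocytes, which held the most Acsl1, thus showed no called change, although the butyrate libraries were the lowest.

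Acsl3 and Acsl4 rose everywhere and Acsl5 fell everywhere. Acsl3, tied to lipid droplets and the endoplasmic reticulum, rose most in hepatocytes (49.5, 45.7 and 41.9 CPM in the controls, 106, 103 and 100.4 CPM with butyrate, 44.1 to 50 CPM with βOHB, log2 fold change 1.18 ± 0.08, adjusted P = 6.71e-14). All butyrate libraries were far above the rest. Acsl3 changed by 0.67, 0.62 and 0.37 in adipocytes, macrophages and myotubes on the log2 scale. Acsl4, which prefers arachidonic acid, changed by 0.41 in adipocytes, 0.28 in macrophages, 0.22 in myotubes and 0.70 in hepatocytes. Acsl5, abundant in liver, was at 474, 441 and 518 CPM in hepatocyte controls and 254, 242 and 254 CPM with butyrate (log2 fold change -0.94 ± 0.08, adjusted P = 1.73e-11), and changed by -0.82, -0.57 and -0.36 in the others. In myotubes the Acsl5 groups overlapped, and without butyrate replicate 1 the value was -0.19 (adjusted P = 0.0305). The Acsl4 call in myotubes was lost without control replicate 2 or butyrate replicate 3 (0.15 to 0.17, adjusted P from 0.0797 to 0.0959) and with no filter on low counts (0.15, adjusted P = 0.147). The Acsl5 call in myotubes was lost under scaling by library totals alone or when that cell type was fitted alone (-0.33 to -0.22, adjusted P from 0.0562 to 0.0637).

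The thioesterases Acot1 (cytosolic) and Acot2 (mitochondrial) cleave acyl-CoA back to free acid and moved in opposite directions in all 4 cell types. In hepatocytes, Acot1 stood at 3.45, 1.84 and 2.01 CPM in the controls and at 34.8, 34.0 and 30.1 CPM with butyrate (log2 fold change 3.76 ± 0.18, adjusted P = 2.49e-17), against 1.81 to 2.58 CPM with βOHB. In adipocytes, Acot1 stood at 1.99, 1.42 and 1.39 CPM in the controls and at 13.9, 13.7 and 14.1 CPM with butyrate (log2 fold change 3.11 ± 0.19, adjusted P = 8.11e-15), against 0.721 to 2.01 CPM with βOHB. In macrophages, Acot1 stood at 2.46, 2.37 and 1.86 CPM in the controls and at 9.08, 10.0 and 9.93 CPM with butyrate (log2 fold change 2.12 ± 0.18, adjusted P = 1.85e-11), against 2.23 to 3.01 CPM with βOHB. Every butyrate library was above every other library of its cell type, 13.6-fold the control mean in hepatocytes and 8.66-fold in adipocytes. In myotubes, Acot1 stood at 1.51, 1.28 and 1.32 CPM in the controls and at 2.24, 2.47 and 2.86 CPM with butyrate (log2 fold change 0.88 ± 0.23, adjusted P = 0.00149), against 1.01 to 1.51 CPM with βOHB. Acot2 went from 62.3 ± 15.7 to 46.5 ± 0.91 CPM (SD, n = 3) in adipocytes, with log2 fold changes of -0.42 in adipocytes, -0.89 in macrophages, -0.71 in myotubes and -0.63 in hepatocytes. The Acot2 call in adipocytes was lost without control replicate 1 (-0.19, adjusted P = 0.101).

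The pair are near copies, and reads can be shared between them: 16.7% of the 31-base words of Acot1 lie in Acot2 and 29.9% of those of Acot2 lie in Acot1. Their levels are therefore uncertain where the counting had to divide such reads. Summed, the pair came to 63.9 CPM in adipocyte controls and 60.5 CPM with butyrate (log2 fold change -0.08, adjusted P = 0.536). In macrophages the sum was 11.7 and 14.7 CPM (0.34, adjusted P = 0.0185), in myotubes 13.4 and 9.89 CPM (-0.44, adjusted P = 0.00342), and in hepatocytes 31.8 and 52.0 CPM (0.71, adjusted P = 1.81e-06). Acot2 made up most of the sum in the controls (62.3 CPM in adipocytes and 12.1 CPM in myotubes, against 1.6 and 1.37 CPM of Acot1), so the value of the sum is not one of Acot1 alone. The sum thus rose in hepatocytes and macrophages, fell in myotubes and was not called in adipocytes.

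Both genes lie on chromosome 12 in the same direction with 15616 bases between them (Acot2 at chr12:83987861-83993873, plus strand, Acot1 at chr12:84009490-84018371, plus strand). Their windows around the RefSeq start (chr12:84009252-84009551 for Acot1 and chr12:83987611-83987910 for Acot2, GRCm38.p6, plus strand) are shown because such close copies gave opposite calls. Capitals mark the GC box (GGGCGG) and the CCAAT box (CCAAT), each on either strand.

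Acot1: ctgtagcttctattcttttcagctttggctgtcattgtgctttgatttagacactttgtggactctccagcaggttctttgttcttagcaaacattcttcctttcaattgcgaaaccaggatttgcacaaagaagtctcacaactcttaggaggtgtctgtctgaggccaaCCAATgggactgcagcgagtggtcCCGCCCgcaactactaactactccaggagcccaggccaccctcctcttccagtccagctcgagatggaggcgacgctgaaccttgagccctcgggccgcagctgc
Acot2: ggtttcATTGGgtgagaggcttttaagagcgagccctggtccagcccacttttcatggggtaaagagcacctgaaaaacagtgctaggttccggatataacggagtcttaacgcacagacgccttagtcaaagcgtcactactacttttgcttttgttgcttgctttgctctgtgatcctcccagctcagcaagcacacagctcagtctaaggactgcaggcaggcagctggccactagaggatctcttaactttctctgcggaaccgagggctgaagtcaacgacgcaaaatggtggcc

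Pdk4 and the uncoupling proteins bear on how fuel is chosen and spent. Pdk4 (chr6:5483351-5496309, minus strand), the kinase that shuts off pyruvate dehydrogenase when fat is burnt, rose in hepatocytes and adipocytes. In hepatocytes, Pdk4 stood at 36.1, 39.2 and 31.1 CPM in the controls and at 69.2, 64.7 and 54.5 CPM with butyrate (log2 fold change 0.82 ± 0.23, adjusted P = 0.00218), against 30.8 to 34.4 CPM with βOHB. In adipocytes, Pdk4 stood at 688, 323 and 341 CPM in the controls and at 699, 729.7 and 853 CPM with butyrate (log2 fold change 0.76 ± 0.21, adjusted P = 0.00228), against 224 to 541 CPM with βOHB. Adipocyte control replicate 1 came within reach of the lowest butyrate library, and the other controls were far below. Without that control the log2 fold change was 1.2 (adjusted P = 2.7e-06). In macrophages, Pdk4 stood at 20.2, 18.6 and 17.6 CPM in the controls and at 10.9, 12.5 and 13.2 CPM with butyrate (log2 fold change -0.62 ± 0.25, adjusted P = 0.0307), against 17.3 to 18.5 CPM with βOHB. In myotubes, Pdk4 stood at 392, 458 and 461 CPM in the controls and at 425, 447 and 361 CPM with butyrate (log2 fold change -0.09 ± 0.21, adjusted P = 0.727), against 455 to 478 CPM with βOHB. In macrophages Pdk4 fell from a low level, and in myotubes, where it is next to Acadl per kb, the groups overlapped. The Pdk4 call in adipocytes was lost when that cell type was fitted alone (0.76, adjusted P = 0.0528). The Pdk4 call in macrophages was lost without control replicate 1, control replicate 2, butyrate replicate 1 or butyrate replicate 2 (-0.63 to -0.53, adjusted P from 0.052 to 0.11) and with limma-voom or under scaling by library totals alone (-0.63 to -0.40, adjusted P from 0.0797 to 0.162).

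Ucp2 and Ucp3 are carriers of the inner mitochondrial membrane, the former widespread and the latter mostly of muscle and brown fat. In hepatocytes, Ucp2 stood at 12.4, 11.1 and 9.05 CPM in the controls and at 30.3, 31.9 and 29.8 CPM with butyrate (log2 fold change 1.50 ± 0.10, adjusted P = 8.57e-14), against 10.2 to 14.0 CPM with βOHB. In myotubes, Ucp2 stood at 367, 391 and 398 CPM in the controls and at 259.6, 242 and 243 CPM with butyrate (log2 fold change -0.63 ± 0.08, adjusted P = 6.75e-08), against 365 to 399 CPM with βOHB. In adipocytes, Ucp2 stood at 54.4, 48.5 and 61.5 CPM in the controls and at 78.2, 73.0 and 80.5 CPM with butyrate (log2 fold change 0.49 ± 0.09, adjusted P = 9.16e-06), against 45.2 to 55.4 CPM with βOHB. Ucp2 thus rose in hepatocytes and adipocytes and fell in myotubes, with no overlap in any of the 3. In macrophages, Ucp2 stood at 524, 512 and 512 CPM in the controls and at 478, 452 and 472 CPM with butyrate (log2 fold change -0.14 ± 0.08, adjusted P = 0.123), against 505 to 524 CPM with βOHB. Macrophages, with the most Ucp2, had lower butyrate libraries but no call, except with macrophages fitted alone (-0.11, adjusted P = 0.0168).

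Ucp3 had the steepest falls of all members. In myotubes, Ucp3 stood at 4.45, 4.32 and 5.01 CPM in the controls and at 0.651, 0.647 and 0.313 CPM with butyrate (log2 fold change -3.07 ± 0.29, adjusted P = 1.98e-09), against 3.29 to 4.04 CPM with βOHB. In adipocytes, Ucp3 stood at 13.0, 10.0 and 9.46 CPM in the controls and at 2.46, 2.76 and 2.74 CPM with butyrate (log2 fold change -2.02 ± 0.22, adjusted P = 1.94e-08), against 6.35 to 11.8 CPM with βOHB. In both cell types no butyrate library reached the lowest control. That is a level 0.119 times that of the controls in myotubes and 0.246 times in adipocytes. Ucp3 had no count in any of the 9 hepatocyte libraries and at most 3 counts in a macrophage library, which is within the 3 counts that a true 0 allows, so neither gives a fold.

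Ucp3 (chr7:100472990-100486432, plus strand) and Ucp2 (chr7:100493337-100502020, plus strand) are neighbours on chromosome 7, both on the plus strand with 6904 bases between them. The windows of Ucp2 (chr7:100493108-100493407, GRCm38.p6) and Ucp3 (chr7:100472741-100473040) are shown because the genes moved apart in adipocytes and together in myotubes. Capitals mark the GC box (GGGCGG) in the Ucp2 window and the AGGTCA hexamer of nuclear receptor sites in the Ucp3 window, each searched on either strand.

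Ucp2: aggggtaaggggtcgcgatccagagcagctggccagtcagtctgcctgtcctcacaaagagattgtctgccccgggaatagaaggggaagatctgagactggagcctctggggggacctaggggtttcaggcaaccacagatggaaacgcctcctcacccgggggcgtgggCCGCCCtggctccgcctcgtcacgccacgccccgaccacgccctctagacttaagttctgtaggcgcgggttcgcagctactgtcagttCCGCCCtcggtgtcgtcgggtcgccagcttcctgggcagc
Ucp3: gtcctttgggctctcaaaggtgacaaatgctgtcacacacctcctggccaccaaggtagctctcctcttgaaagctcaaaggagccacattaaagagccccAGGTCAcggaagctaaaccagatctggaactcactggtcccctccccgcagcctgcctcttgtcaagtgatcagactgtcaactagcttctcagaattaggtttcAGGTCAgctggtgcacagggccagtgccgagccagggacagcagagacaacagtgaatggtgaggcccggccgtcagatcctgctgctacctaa

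**Figure D4:**
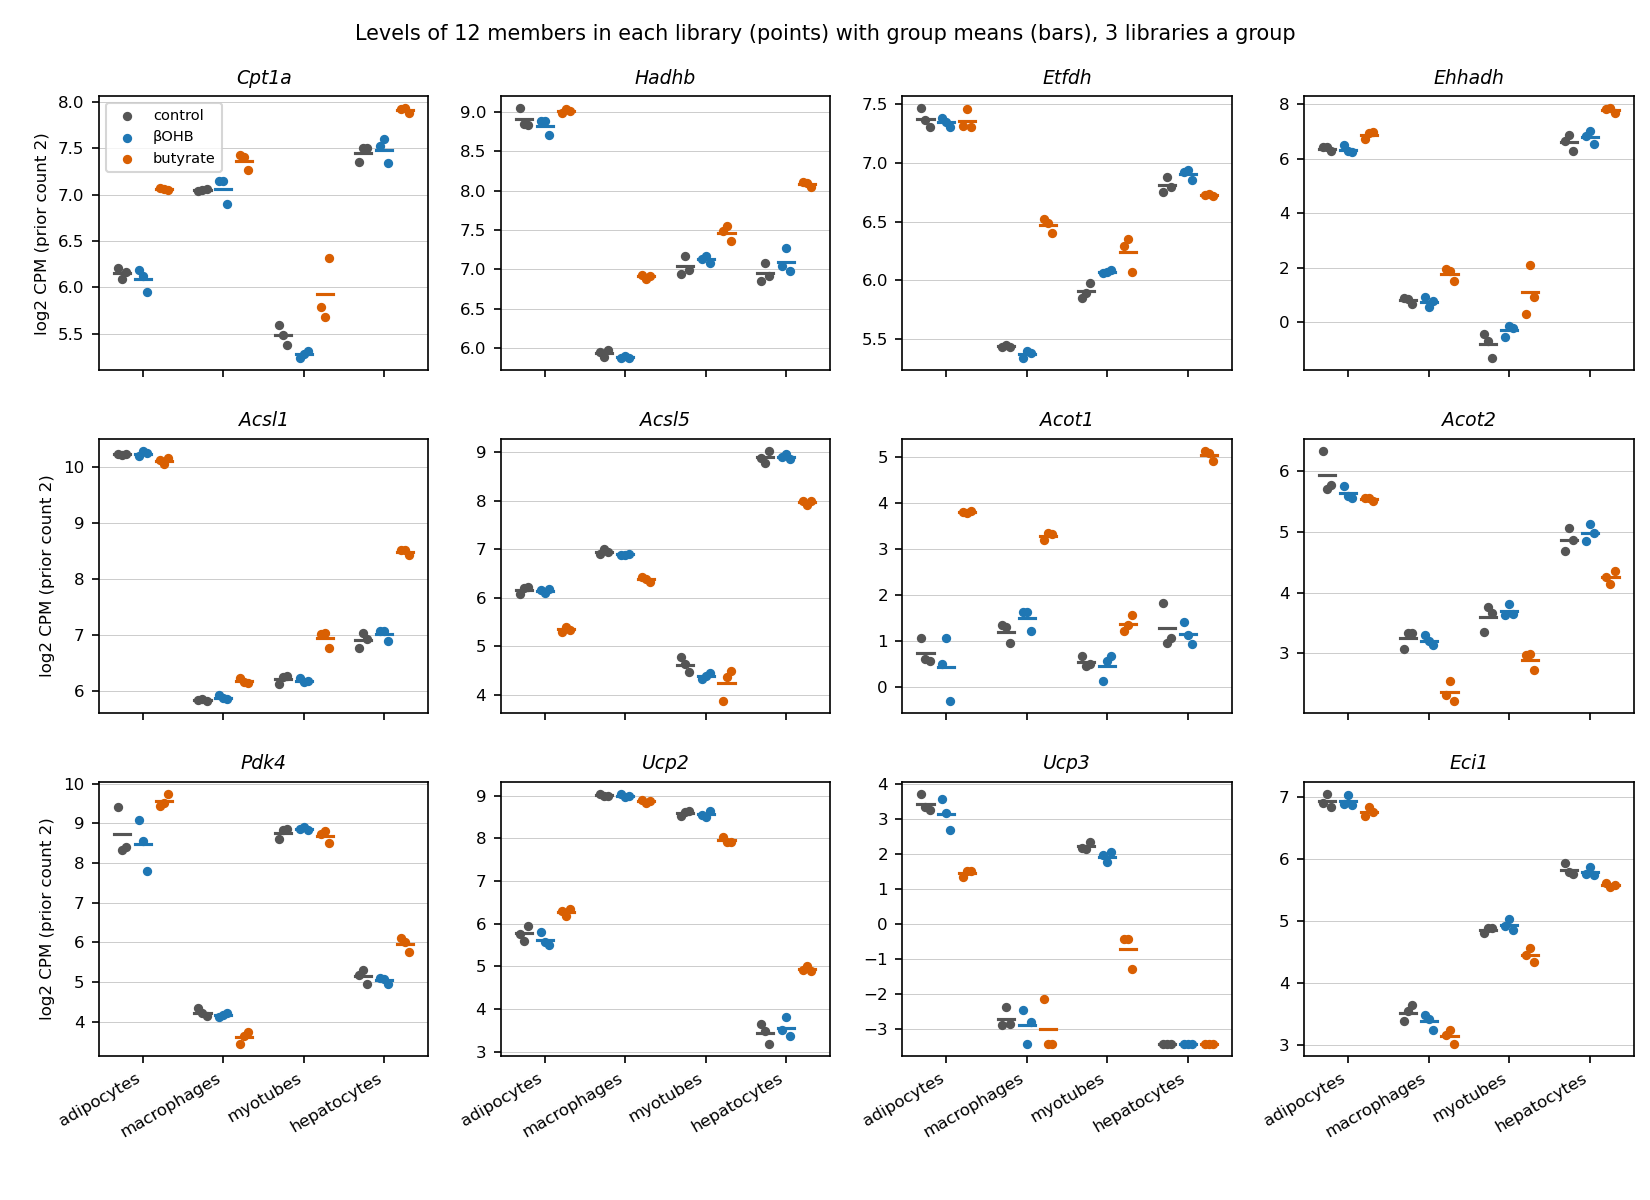
Log2 CPM (prior count of 2) of 12 members in each of the 36 libraries, by cell type and treatment, 1 point per library and a bar at each group mean. Butyrate points lie apart from control and βOHB points for Cpt1a in each cell type, for Acsl1 and Ucp2 in hepatocytes and for Ucp3 in adipocytes and myotubes.

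βOHB, a product of this pathway in liver, called no member in any cell type. The count was 0 of 32 with edgeR, limma-voom and DESeq2 in each of the 4, where 0.00652% of all tested genes were called in adipocytes, 0% in macrophages, 2.91% in myotubes and 0.00652% in hepatocytes. Those shares come from 1, 0, 446 and 1 genes of 15340. With each cell type fitted alone, 0, 5, 0 and 1 genes were called in the same order, so the share in myotubes depends on the spread shared over all libraries. At an unadjusted P below 0.05 there was 1 member in adipocytes, 0 in macrophages, 6 in myotubes and 0 in hepatocytes. Of all 15340 genes tested, 1097, 358, 2104 and 845 had such a P in the same order. The data bound the effect: the 95% interval of the log2 fold change lay within ±0.5 for 27 members in adipocytes, 27 in macrophages, 27 in myotubes and 28 in hepatocytes. The members with wider intervals were Cpt1b, Acot1, Pdk4, Ucp3, Ehhadh and Acot2, in 1 or more cell types. The widest, Ucp3 (-2.67 to 1.99) and Cpt1b (-2.40 to 2.05) in macrophages and Ehhadh in myotubes (-0.65 to 1.74), belong to genes under 1 CPM in those groups, so little can be said of them at this depth.

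By organelle, the 19 mitochondrial members had median log2 fold changes under βOHB of -0.03, -0.05, 0.10 and 0.05 in adipocytes, macrophages, myotubes and hepatocytes, against 0.00, 0.00, 0.02 and 0.00 for all tested genes, and the 3 peroxisomal enzymes had -0.04, -0.05, 0.00 and 0.08. In myotubes the mitochondrial sum was 1578, 1738 and 1686 CPM in the controls and 1799, 1803 and 1803 CPM with βOHB. As scaled by TMM, the βOHB libraries lay above all controls in this sum, though no member was called. The TMM factors were 1.06, 1.017 and 0.994 for the controls and 0.973, 0.986 and 0.982 for βOHB. A lower factor gives a higher CPM. Over all tested genes the log2 median in myotubes was 0.023 with TMM and -0.035 when only library totals were used. Whether the sums stay apart under that scaling was not tested. In the same libraries 8 myotube markers summed to 26039, 31808 and 30449 CPM in the controls and 35013, 32535 and 32753 CPM with βOHB. The sum of 4 proliferation markers was 33.8 to 73.5 CPM in the controls and 20.5 to 25.6 CPM with βOHB. The part these shifts play in the mitochondrial sum was not tested. Control and βOHB libraries did not overlap for 10 of the 32 members in myotubes, 8 of them mitochondrial, with 7 higher and 3 lower under βOHB, where 22.9% of all tested genes did not overlap. The count was 2 in adipocytes (against 12.7%), 2 in macrophages (11.1%) and 0 in hepatocytes (6.71%). These counts too rest on values scaled by TMM.

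The smallest P values in myotubes belonged to Etfdh and Acadm. Etfdh in myotubes was at 57.4, 59.3 and 62.8 CPM in the controls and 66.9, 66.9 and 67.8 CPM with βOHB (log2 fold change 0.17 ± 0.06, adjusted P = 0.145). Acadm in myotubes was at 60.8, 70.2 and 66.6 CPM in the controls and 76.0, 74.7 and 72.2 CPM with βOHB (log2 fold change 0.17 ± 0.07, adjusted P = 0.202). In both the βOHB libraries lay above all controls, by little and as scaled by TMM. Under library totals alone the log2 fold change of Etfdh was 0.11 (adjusted P = 0.4). Acadl (0.12), Acaa2 (0.15) and Crat (0.20) also had an unadjusted P below 0.05 with higher βOHB libraries, and Acsl5 (-0.24) with lower ones. The adjusted P of these 6 ranged from 0.145 to 0.332. Acot2 in adipocytes was at 80.4, 52.0 and 54.5 CPM in the controls and 53.9, 48.3 and 47.1 CPM with βOHB (log2 fold change -0.32 ± 0.12, adjusted P = 0.592). The βOHB libraries overlapped the controls, of which replicate 1 was far above the others. Crat in adipocytes was at 190.0, 207 and 199 CPM in the controls and 213, 221 and 229.7 CPM with βOHB (log2 fold change 0.16 ± 0.08, adjusted P = 0.712). The Crat libraries with βOHB were above all controls, without a call. With no filter on low counts Acot2 in adipocytes was called (-0.32, adjusted P = 0.0447), where 192 of 32246 genes were called against 1 of 15340 with the filter. Without control replicate 1 the Acot2 value was -0.10 (adjusted P = 1.0). Etfa in macrophages was at 57.0, 56.8 and 56.9 CPM in the controls and 52.1, 51.4 and 55.0 CPM with βOHB (log2 fold change -0.11 ± 0.07, adjusted P = 1.0). Eci1 in macrophages was at 10.4, 11.6 and 12.4 CPM in the controls and 11.1, 10.6 and 9.43 CPM with βOHB (log2 fold change -0.14 ± 0.09, adjusted P = 1.0). The βOHB libraries lay below the controls for Etfa and overlapped them for Eci1. Hadhb in hepatocytes was at 115, 136 and 120.2 CPM in the controls and 132, 154 and 126 CPM with βOHB (log2 fold change 0.15 ± 0.07, adjusted P = 0.903). Decr1 in hepatocytes was at 59.5, 63.6 and 59.3 CPM in the controls and 62.4, 71.9 and 66.1 CPM with βOHB (log2 fold change 0.14 ± 0.07, adjusted P = 0.936). In hepatocytes the groups overlapped for both genes.

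Set directly against each other at the same dose and time, the compounds differed for most members. Butyrate minus βOHB was called for 20 members in adipocytes (12 higher and 8 lower with butyrate), where 59.5% of all tested genes were called. The count was 25 in macrophages (19 and 6, against 64.7%), 21 in myotubes (11 and 10, against 66.0%) and 28 in hepatocytes (18 and 10, against 63.5%). These 4 comparisons were adjusted over all tested genes, each on its own. The widest gaps in hepatocytes were Acot1 at 3.92 (95% interval 3.55 to 4.29) and Acsl1 at 1.47 (95% interval 1.33 to 1.61). Cpt1a was higher with butyrate in all 4 cell types, from 0.30 (95% interval 0.10 to 0.50) in macrophages to 0.97 (95% interval 0.77 to 1.18) in adipocytes. Ucp3 was lower with butyrate in myotubes, at -2.76 (95% interval -3.38 to -2.14), and in adipocytes, at -1.76 (95% interval -2.23 to -1.30). Members that were not called include Crat in hepatocytes, at 0.09 (95% interval -0.09 to 0.27), Acadvl in adipocytes, at 0.01 (95% interval -0.14 to 0.15), and Pdk4 in myotubes, at -0.18 (95% interval -0.61 to 0.24). The last interval leaves room for a difference of some size in either direction.

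Whether the butyrate effect itself differed among the 4 cell types was tested for each gene by the interaction of treatment and cell type. It did for 27 of 32 members, where 74.5% of all tested genes passed. The 5 that did not pass were Cpt2 (adjusted P = 0.577), Eci1 (0.113), Acot2 (0.152), Crat (0.311) and Ucp3 (0.0616). Among those that passed with the smallest P were Acsl1 (1.65e-14), Ucp2 (1.17e-13) and Etfdh (1.29e-12). The βOHB effect differed among cell types for 0 of 32 members with edgeR (1 at an unadjusted P below 0.05, Etfdh), against 0.978% of all tested genes.

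Genes of the pathway outside the 32 were taken from lists chosen by function, 55 genes in all, of which 54 were tested. Under butyrate 13 rose and 14 fell in adipocytes, 19 and 12 in macrophages, 32 and 8 in myotubes, and 24 and 11 in hepatocytes. That is 24.1% up and 25.9% down in adipocytes, below the 30.7% and 30.3% of all tested genes. In macrophages it is 35.2% and 22.2% (all genes 31.9% and 33.2%), in myotubes 59.3% and 14.8% (33.1% and 33.4%), and in hepatocytes 44.4% and 20.4% (31.0% and 32.4%). Under βOHB 0 were called in each cell type with edgeR (unadjusted P below 0.05 for 4, 2, 7 and 3) beside the counts over all genes given above. Among 10 further mitochondrial genes, the calls numbered 1 up with 1 down for adipocytes, 5 up with 1 down for macrophages, 6 up with 1 down for myotubes and 6 up with 2 down for hepatocytes. Acad9, a dehydrogenase that also helps assemble respiratory chain enzymes, rose in all 4 (0.38 in adipocytes, 0.27 in macrophages, 0.26 in myotubes and 0.33 in hepatocytes on the log2 scale), although in myotubes not with the low-count filter left out (0.20, adjusted P = 0.0621). Acacb, the acetyl-CoA carboxylase whose product malonyl-CoA blocks Cpt1, was at 0.355 ± 0.0931 CPM in the controls and 3.78 ± 0.281 CPM with butyrate (log2 fold change 3.37 ± 0.26, adjusted P = 1.25e-12) in macrophages and at 243 ± 15.5 CPM in the controls and 145 ± 4.08 CPM with butyrate (log2 fold change -0.74 ± 0.09, adjusted P = 7.25e-09) in adipocytes. In myotubes Acacb was called higher at 0.50. Slc22a5, the carnitine importer of the plasma membrane, had 16.9 ± 1.81 CPM in the controls and 36.2 ± 0.684 CPM with butyrate (log2 fold change 1.10 ± 0.07, adjusted P = 4.27e-14) in hepatocytes.

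Among 18 further peroxisomal genes, the calls numbered 6 up with 4 down for adipocytes, 6 up with 4 down for macrophages, 13 up with 1 down for myotubes and 11 up with 2 down for hepatocytes. The shares of all tested genes are those given above for these lists as a whole. Acot8, a peroxisomal thioesterase (1.08 in adipocytes, 0.44 in macrophages, 0.54 in myotubes and 0.52 in hepatocytes), and Pex5, the import receptor for matrix enzymes (0.29 in adipocytes, 0.58 in macrophages, 0.33 in myotubes and 0.76 in hepatocytes), rose in all 4. Abcd2, an importer of very-long-chain acyl-CoA, was at 1.88 ± 0.352 CPM in the controls and 20.2 ± 0.461 CPM with butyrate (log2 fold change 3.43 ± 0.16, adjusted P = 1.32e-17) in hepatocytes, and Pex11a, which drives peroxisome division, at 4.76 ± 0.247 CPM in the controls and 11.1 ± 0.525 CPM with butyrate (log2 fold change 1.22 ± 0.12, adjusted P = 2.35e-10) in macrophages. Slc27a2 in myotubes (log2 fold change 2.91) is a liver gene that moved with the hepatocyte markers, and was at 0.67 (adjusted P = 0.503) with the hepatocyte share taken out, 1.08 (adjusted P = 0.239) without butyrate replicate 2 and 1.89 (adjusted P = 0.0733) with limma-voom. Among 8 genes of uptake, binding and activation the counts were 1 up with 4 down for adipocytes, 3 up with 4 down for macrophages, 2 up with 3 down for myotubes and 2 up with 2 down for hepatocytes, with the scavenger receptor Cd36 lower in all 4 (-0.51 in adipocytes, -0.62 in macrophages, -0.80 in myotubes and -0.30 in hepatocytes). Slc27a4, a fatty acid transport protein, was also called lower in all 4 (-0.13 in adipocytes, -0.15 in macrophages, -0.22 in myotubes and -0.62 in hepatocytes), though in macrophages it turned to 0.07 (adjusted P = 0.198) under library totals alone. Under that scaling Acad9 was at 0.49 in macrophages and 0.40 in myotubes, and Cd36 and Pdp2 at -0.39 and -0.38 in macrophages. Fabp4 rose in hepatocytes (1.19), Acsl6 in macrophages (1.66, to 1.02 CPM) and Fabp3 fell in adipocytes (-0.86). The Cd36 call in hepatocytes was lost without control replicate 1 or butyrate replicate 1 (-0.23 to -0.19, adjusted P from 0.106 to 0.162) and with limma-voom, under library totals alone, with no filter on low counts or with that cell type fitted alone (-0.30 to -0.23, adjusted P from 0.0619 to 0.0883). The Slc27a4 call in adipocytes was lost without control replicate 1, butyrate replicate 1 or butyrate replicate 2 (-0.14 to -0.08, adjusted P from 0.0708 to 0.241) and with DESeq2, under RLE scaling, under library totals alone, with no filter on low counts or with that cell type fitted alone (-0.17 to -0.04, adjusted P from 0.0634 to 0.481). The Slc27a4 call in macrophages was lost without butyrate replicate 1 or butyrate replicate 3 (-0.13 to -0.10, adjusted P from 0.0528 to 0.134) and under library totals alone or with no filter on low counts (-0.17 to 0.07, adjusted P from 0.102 to 0.198). The Slc27a4 call in myotubes was lost under library totals alone (-0.09, adjusted P = 0.132). The Fabp3 call in adipocytes was lost without control replicate 1 or butyrate replicate 3 (-0.68 to -0.64, adjusted P from 0.0664 to 0.0894) and with limma-voom (-0.81, adjusted P = 0.0915). The uptake list gave 3 calls in adipocytes without control replicate 1, and 3 in myotubes without control replicate 2, control replicate 3 or butyrate replicate 3.

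Of 5 kinases and phosphatases of pyruvate dehydrogenase the counts were 2 up with 0 down for adipocytes, 2 up with 1 down for macrophages, 4 up with 1 down for myotubes and 1 up with 1 down for hepatocytes. The phosphatase Pdp1 was at 12.4 ± 1.02 CPM in the controls and 29.6 ± 1.04 CPM with butyrate (log2 fold change 1.26 ± 0.08, adjusted P = 7.57e-14) in adipocytes, Pdp2 rose in myotubes (0.93) and fell in macrophages (-0.61), and Pdk3 rose in hepatocytes (0.76). The 6 regulators gave 2 up with 3 down for adipocytes, 3 up with 1 down for macrophages, 4 up with 1 down for myotubes and 4 up with 1 down for hepatocytes. Ppargc1a, the coactivator of mitochondrial genes, rose in all 4 cell types, from 4.62 to 34.8 CPM in hepatocytes, with log2 fold changes of 0.72 in adipocytes, 2.92 in macrophages, 1.50 in myotubes and 2.91 in hepatocytes. Ppard, the most widespread PPAR, rose in all 4 as well (0.62 in adipocytes, 0.45 in macrophages, 0.83 in myotubes and 0.47 in hepatocytes), while Pparg, the PPAR of fat cells, was at 263 ± 2.57 CPM in the controls and 136 ± 8.63 CPM with butyrate (log2 fold change -0.95 ± 0.07, adjusted P = 2.36e-13) in adipocytes. Of 8 PPAR targets outside oxidation, 7 were tested and gave 1 up with 2 down for adipocytes, 0 up with 1 down for macrophages, 3 up with 1 down for myotubes and 0 up with 3 down for hepatocytes, the myotube count being 2 up with 1 down with the hepatocyte share taken out. Plin2, a coat protein of lipid droplets, fell in macrophages (-1.22) and hepatocytes (-0.95), and Fgf21 rose in adipocytes (1.03, to 0.761 CPM).

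RefSeq start windows of 300 bases were found for 27 of the 32 members (28 windows) and compared with 32851 windows of all genes, on either strand. The GC box (GGGCGG) occurred in 71.4% of the member windows and 35.66% of all windows, the CCAAT box in 14 of 28 member windows and 37.41% of all windows, and the AGGTCA hexamer in 14.3% of the member windows and 16.26% of all windows. The DR1 element, the site that PPARs bind with RXR, was matched in 0 of 28 member windows and 0.04% of all, and the element of the estrogen-related receptors (ERRE) in 0 of 28 and 0.42%. Only exact matches within the windows were counted. At such low rates over all windows, 0 of 28 cannot show whether these genes have such sites. Median GC content was 60.5% in member windows and 52.7% in all. Of the windows printed above, that of Hadhb has 4 GC boxes, that of Ucp2 has 2, that of Acot1 has 1 with a CCAAT box, that of Acot2 has a CCAAT box alone, and that of Ucp3 has 2 AGGTCA hexamers.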

How the data were processed

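The 36 RNA libraries were sequenced by the study as paired reads on the BGISEQ-500. Per the study's methods, the authors assigned reads with Salmon 1.2.1 to GENCODE M25 transcripts (GRCm38.p6) and summed them per gene with tximport, and the deposited table holds estimated counts per gene. The methods mention scaling by transcript length and library size, and the totals of the deposited libraries differ. Counts were rounded. A gene was kept when 6 or more libraries had over 1 CPM. The main test was the quasi-likelihood F test of edgeR 4.0.16 (R 4.3.3), with a mean for each of the 12 groups, TMM factors and Benjamini-Hochberg adjustment over all genes kept. The study used limma. Errors after ± are standard errors of log2 fold changes unless SD is named, with 3 libraries per group. With 3 against 3, an exact permutation test of a single gene cannot go below 0.1, so none was run.

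Symbols and positions are from GENCODE M21 (GRCm38), which held 54094 of the 54347 identifiers. Levels between genes were divided by the length of the principal transcript. Shared sequence was counted as 31-base words of each gene's annotated transcripts found in other genes, and RefSeq windows were searched for exact motif matches. The scripts were tested on simulated counts. No library or column was left out. Members and lists were chosen with earlier results of these data known. Values in every library are given for Cpt1a, Cpt1b, Cpt2, Acadm, Acadvl, Hadha, Ehhadh, Hsd17b4, Acsl1, Pdk4, Ucp2 and Ucp3 where a group reached 1 CPM, for called members changed by at least 1 on the log2 scale, and for the 2 members of smallest P under βOHB. Outside the members, genes called alike in all 4 cell types and the largest called change of each list and cell type are named, save 1 gene that is not reported here. Alternatives were limma-voom 3.58.1, DESeq2 1.42.0, RLE scaling, library totals alone, no filter, filterByExpr, the replicate number as a block, each cell type alone, paralogs summed, and each library left out. Summing overlapping genes that share reads, and subtracting the hepatocyte share from myotube libraries in proportion to 8 hepatocyte markers, were added after seeing the data.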

Additional observations from a re-analysis of the deposited data

Results flagged for a closer look

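The butyrate effect differed among the 4 cell types for 27 of the 32 members by the interaction test in edgeR, against 74.5% of all tested genes. Those called in opposite directions in different cell types were Cpt1b (adjusted P of the difference = 0.0276), Acadl (6.14e-10), Acadvl (0.00313), Eci2 (1.84e-09), Decr1 (8.2e-06), Etfa (3.76e-07), Hsd17b4 (9.91e-09), Pdk4 (0.000468) and Ucp2 (1.17e-13). Acadl rose in macrophages (0.36) and fell in the other 3 cell types (-0.48 in myotubes), with control and butyrate libraries apart in each. Ucp2 rose in hepatocytes (1.50) and fell in myotubes (-0.63). In 1 or more cell types, the calls of Cpt1b, Acadvl, Eci2, Decr1, Etfa, Hsd17b4 and Pdk4 were lost without 1 library or under another setting, as given with each gene.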

How the results depend on the processing

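Of 114 changes of single members, 79 kept their direction and their side of the threshold in each setting that was run on them, and 35 did not in at least 1. The direction turned for Eci2 in macrophages (0.06 under library totals alone). The sum of Acot1 and Acot2, mostly Acot2, was at -0.08 in adipocytes and -0.44 in myotubes, where Acot1 by itself rose. Outside the members, Slc27a4 turned to 0.07 in macrophages under library totals alone. With no filter on low counts 1 member was called under βOHB in adipocytes (Acot2), where 0 were called otherwise. Under that setting 192 of 32246 genes were called there, against 1 of 15340, and the cause was not tested. Leaving out 1 library at a time gave 16 to 19, 24 to 26, 19 to 24 and 23 to 28 members called under butyrate in adipocytes, macrophages, myotubes and hepatocytes, 0 under βOHB in each, 15 to 18, 22 to 24, 20 to 21 and 25 to 28 for butyrate against βOHB, 26 to 29 for the interaction of butyrate and cell type, 0 for that of βOHB and 179 to 182 for pairs of control levels. The replicate numbers do not pair the samples: same-numbered libraries did not deviate together in every pair of groups of any cell type. With the replicate number as a block, 22, 27, 22 and 27 members were called under butyrate, and of the PPAR targets outside oxidation 2 in macrophages and 5 in hepatocytes (1 and 3 without it). With the hepatocyte share taken out, 21 members were called in myotubes. Depth limits what can be said of Cpt1b and Ucp3 in macrophages, Ehhadh and Acot1 in myotubes, and Ucp3 in hepatocytes.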
